A study of Mus musculus with 2 samples.

Results

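The genes described here are 32 mouse genes for RNA-binding proteins that control alternative splicing and related steps of RNA processing in the nervous system. They are a list of symbols, with no threshold on their values, and each was found by its Ensembl identifier among the 43346 mouse genes of the deposited gene tables, of which 21474 are protein coding. They fall into 11 families: Ptbp (3 genes), Nova (2), Rbfox (3), Elavl (4), Celf (6), Mbnl (3), Srrm (2), Msi (2), Khdrbs (3), the Fmr1, Fxr1 and Fxr2 family (3) and Qk (1). Total RNA sequencing was done on neural tube from embryos of the mouse strain B6NCrl at embryonic day 12.5. There were 2 libraries and 1 group, with no treatment, mutation or second tissue. Replicate 1 came from 120 embryos and replicate 2 from 88 embryos, males and females pooled, and both carry the same donor label, so a library is a pool and not an animal. Each library used 10 ng of total RNA longer than 200 nucleotides (nt), with spike-in controls added. With 1 group and 2 libraries no test was made, every SD is over n = 2, and differences between libraries describe the spread between pools.

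Splicing regulators of this kind bind short motifs in pre-mRNA and raise or lower the use of nearby exons. In the developing nervous system a change of paralogs accompanies differentiation: PTBP1, a repressor of many neuronal exons, is characteristic of dividing progenitors and non-neural cells, whereas PTBP2 and the NOVA, RBFOX, neuronal ELAVL, SRRM3 and SRRM4 proteins are characteristic of neurons. Many of these genes also splice their own transcripts in alternative ways, some of which encode different proteins and some of which are removed by nonsense-mediated decay.

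Summed over all mouse genes, the depth in expected counts was 31610805 for replicate 1 and 33530172 for replicate 2, and the 32 regulators held 0.451% and 0.452% of these counts. Both libraries held neural markers: the 10 neuronal markers summed to 4003 and 4393 TPM (a level scaled for transcript length and for depth), and the 10 progenitor markers to 3111 and 3199 TPM. They also held RNA of other tissues. The 5 erythroid markers summed to 6551 and 6463 TPM, led by Hbb-y (5432 and 5298 TPM). The 4 mesenchyme markers summed to 607.9 and 622.9 TPM, and the endothelial, macrophage and epidermis markers to less. The 10 skeletal muscle markers summed to 399.8 TPM in replicate 1 and 291.6 in replicate 2 and were lower in replicate 2 in 10 of 10, and the 8 sensory ganglion markers summed to 334.3 and 471.4 TPM and were higher in 8 of 8. In such bulk tissue, fewer cells of a type and less RNA per cell cannot be told apart.

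All 32 regulators were present at 1 TPM or more in both libraries, against 62.1% of protein-coding genes and 35% of all mouse genes. At 10 TPM or more the count was 31 of 32, against 42.3% of protein-coding genes, and Mbnl3 was the exception. The median level over the 32 was 44.6 ± 0.68 TPM, against 21.3 ± 0.51 TPM over the 13333 detected protein-coding genes, and 26 of the 32 were above that median. They stood below the general splicing factors. The median was 276 ± 18.4 TPM over 15 SR proteins and their partners, which promote splicing at most exons, led by Srsf3 (773 and 728 TPM), Srsf2 (674 and 656) and Srsf5 (429 and 477). It was 282 ± 8.99 TPM over 23 hnRNP and PCBP proteins, led by Hnrnpk (1712 and 1688 TPM), Hnrnpa2b1 (948 and 978) and Hnrnpa1 (974 and 942). A list of 18 other splicing regulators had a median of 55.5 ± 2.23 TPM, and 15 of its genes were at 1 TPM or more in both libraries.

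**Figure D1:**
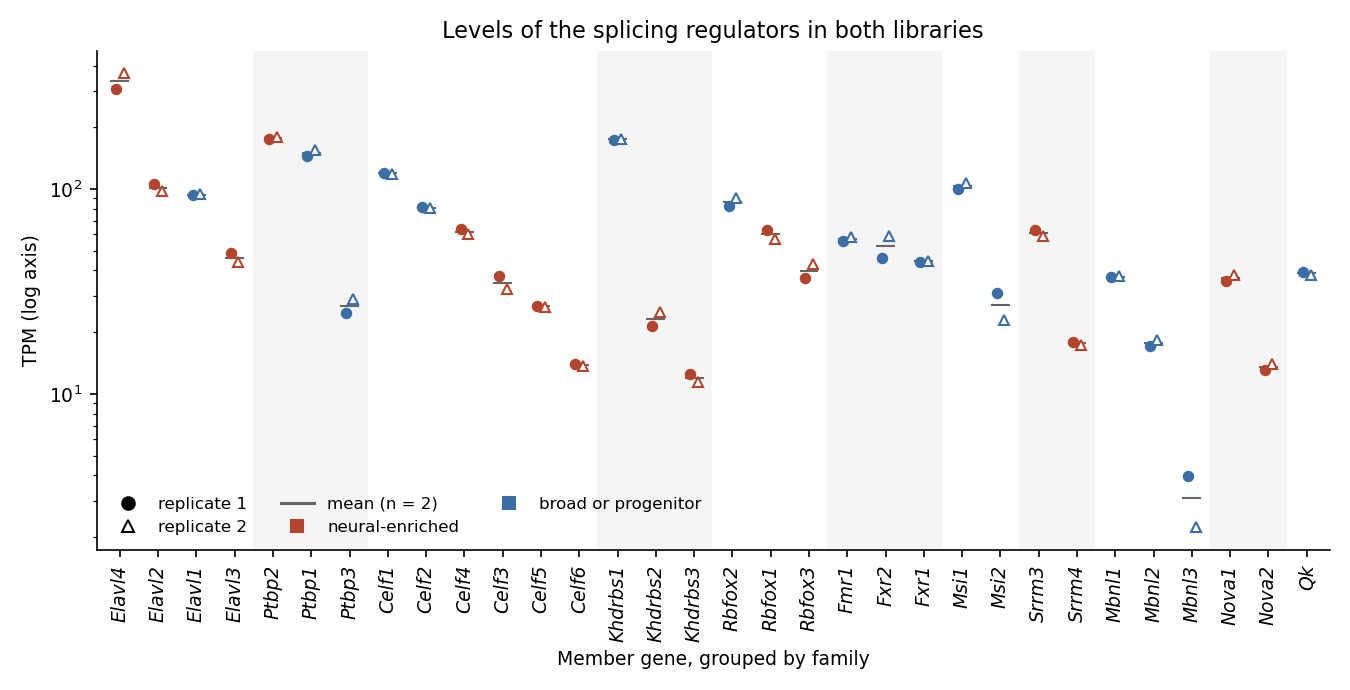
TPM (log axis) of the 32 genes in replicate 1 (circles) and replicate 2 (open triangles), grouped by family, with a line at the mean of both (n = 2) and red for the neural-enriched class. Levels run from 337 TPM for Elavl4 to 3.1 TPM for Mbnl3, and the libraries lie close together for most genes.

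The Elavl family had the highest summed TPM over all forms, 556 TPM in replicate 1 and 601 in replicate 2. ELAVL proteins (Hu proteins) bind AU-rich and U-rich RNA and act on both splicing and mRNA stability. Elavl4 (HuD, neuronal, chr4:110203722-110351909 on the minus strand) was the highest of all 32, at 308 TPM in replicate 1 and 366 in replicate 2. Replicate 2 was higher for this gene, and the deposited intervals of the libraries lay apart. Elavl2 (HuB) was at 105 and 97.5 TPM and Elavl1 (HuR, the ubiquitous paralog) at 93.7 and 94.0 TPM. Elavl3 (HuC), found in neurons, was lowest of the family at 48.5 and 43.9 TPM. Elavl4 held 58.2 ± 3.80% of the family's TPM, and short transcript forms without a coding sequence held 50.7% of Elavl4 TPM. The share was 33.1% of the family's expected counts, beside 32.5% for Elavl1 (10420 and 12603 counts against 11048 and 11513, so that Elavl1 was higher in replicate 1 and Elavl4 in replicate 2), and 33.2% of TPM over forms annotated with a complete coding sequence. On both of those scales Elavl1 lay above Elavl2, the reverse of the order by total TPM. Expected counts are not per length, and the effective length was 5931 nt for Elavl1 against 3557 and 3593 nt for Elavl2. Elavl1 has 1 form, so all of its TPM is complete coding by annotation, while Elavl2 has 16 forms and 81.3%.

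In the Ptbp family both main paralogs were high at the same time. Ptbp2 (chr3:119718742-119784466) was at 175 and 179 TPM, second of the 32, and Ptbp1 at 145 and 156 TPM. The libraries of Ptbp2 lay above those of Ptbp1 in this comparison, with a TPM ratio of 1.21 and then 1.15. The ratio of expected counts was 1.53 and 1.48, so Ptbp2 was the higher on either scale. Ptbp3 (ROD1), best known from blood cells, was at 24.8 and 29.0 TPM and held 7.58% of the family's TPM, beside 49.98 ± 1.08% for Ptbp2 and 42.4 ± 0.51% for Ptbp1.

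Among the Rbfox genes, whose proteins bind GCAUG, Rbfox2 was at 82.6 and 90.5 TPM. It is widely expressed, while Rbfox1 is known from neurons and also from heart and skeletal muscle. Rbfox1 was at 62.8 and 57.2 TPM and Rbfox3 (NeuN, a standard marker of neuronal nuclei) at 36.6 and 43.2 TPM. The order of the first 2 held in both libraries but its size depended strongly on the measure. Rbfox2 was 1.32 and 1.58 times Rbfox1 by TPM and 5.54 and 6.45 times by expected counts. Expected counts are not per length, and the effective length was 6526 and 6533 nt for Rbfox2 against 1549 and 1602 nt for Rbfox1. Rbfox1-202, a form of 1191 nt with 1188 nt of coding sequence, held 83.3% of Rbfox1 TPM. Rbfox1 and Rbfox3 changed order by expected counts, where their ratio was 1.08 in replicate 1 and 0.858 in replicate 2.

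The Nova genes encode neuronal KH-domain proteins that bind YCAY motifs. Nova1 was at 35.5 and 37.9 TPM and Nova2 at 13.1 and 14.1 TPM, a ratio of 2.72 and 2.69, and 2.97 and 3.04 by expected counts. Over complete coding forms, which leave out most of the TPM of Nova2, it was 6.81 and 7.96. Srrm3 and Srrm4 (nSR100) encode activators of neuronal microexons. Srrm3 was at 63.2 and 58.8 TPM and Srrm4 at 17.9 and 17.4 TPM. This order was not stable between measures: the ratio of Srrm3 to Srrm4 was 3.52 and 3.38 by TPM, 0.497 and 0.513 by expected counts, and 0.4003 and 0.450 over complete coding forms. A 526-nt form with a partial coding sequence, Srrm3-202, held 55.8% of Srrm3 TPM. The effective length was 1034 and 1112 nt for Srrm3 against 7328 and 7333 nt for Srrm4, and expected counts are not per length.

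The 6 Celf genes, regulators that bind GU-rich RNA, ran in a graded series. The widely expressed Celf1 was at 120 and 118 TPM and Celf2 at 81.2 and 80.6 TPM. Celf4 was at 63.4 and 60.2 TPM, Celf3 at 37.4 and 32.4, Celf5 at 26.9 and 26.4, and Celf6 at 14.0 and 13.6. No library of one Celf gene overlapped the next in this order. Over complete coding forms Celf2 lay just under Celf4, at 0.914 and 0.967 times its level. That scale depends on the forms annotated: Celf2 has 28, and Celf4 has 2, both complete coding.

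The Mbnl genes, whose proteins bind YGCY motifs and drive adult splicing patterns, differed widely in level. Mbnl1 was at 37.0 and 37.6 TPM, Mbnl2 at 17.1 and 18.3 TPM, and Mbnl3 at 3.97 and 2.23 TPM from 172 and 119 counts. Over complete coding forms Mbnl1 and Mbnl2 could not be ordered, with a ratio of 0.941 in replicate 1 and 1.01 in replicate 2. Mbnl1 has 25 annotated forms, and Mbnl2 has 2, both complete coding. Msi1 (Musashi-1, an RNA-binding protein of neural progenitors) was at 100.1 and 106 TPM and Msi2 at 31.0 and 23.0 TPM. The ratio of Msi1 to Msi2 was 3.23 and 4.62 by TPM, and 6.19 and 7.65 over complete coding forms.

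Khdrbs1 (Sam68), expressed in most cells, was at 174 and 176 TPM, and its library values overlapped those of Ptbp2. Its neuronal relatives Khdrbs2 (SLM1) and Khdrbs3 (SLM2) were at 21.3 and 25.02 TPM and at 12.5 and 11.4 TPM. Khdrbs1 thus held 83.2 ± 0.62% of the family. Fmr1, the fragile X gene, was at 55.9 and 58.5 TPM, Fxr2 at 46.1 and 59.2 TPM, and Fxr1 at 44.1 and 44.4 TPM. Fmr1 and Fxr2 overlapped, and over complete coding forms Fmr1 was 0.943 and 1.05 times Fxr1. Fmr1 has 13 annotated forms, and Fxr1 has 2, both complete coding. Qk, whose KH-domain protein is expressed in progenitors and glia, was at 39.3 and 38.2 TPM.

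**Figure D2:**
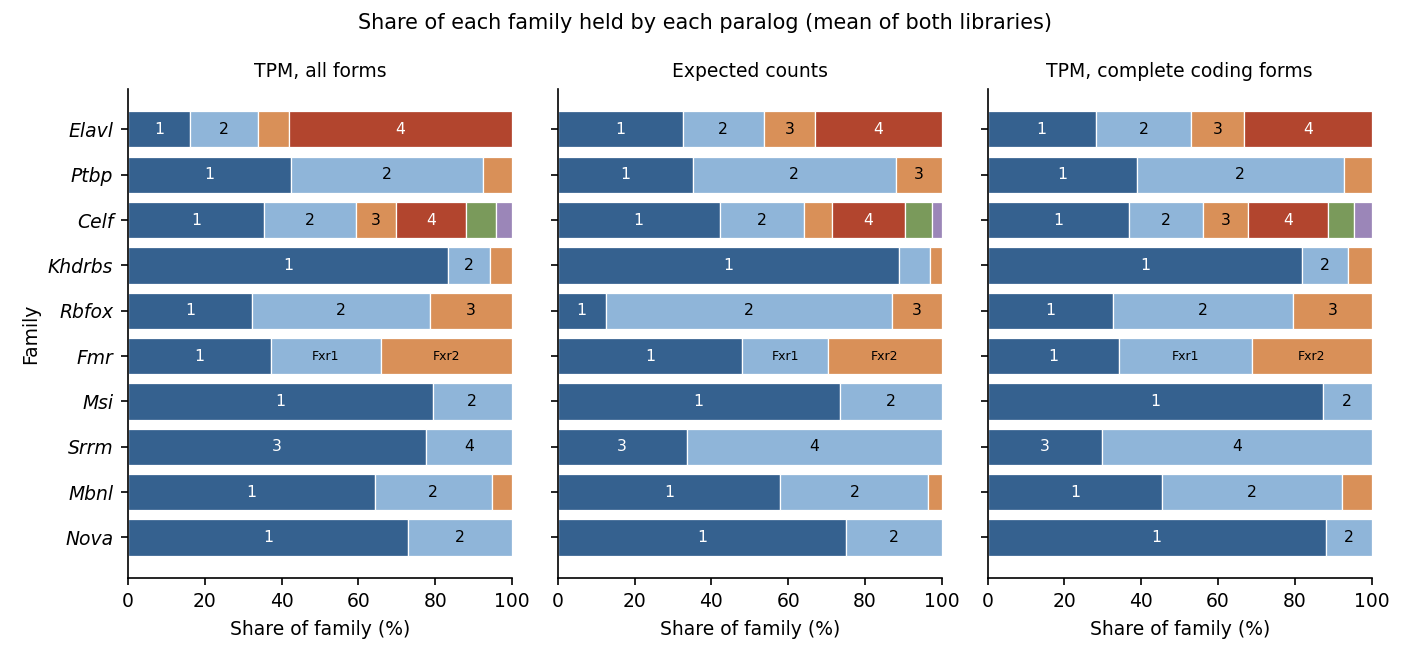
Share (percent, mean of both libraries) of each family held by each paralog, measured by TPM over all forms, by expected counts, and by TPM over complete coding forms; digits in the bars are the paralog numbers. Elavl4 falls from 58.2% to 33.1% between the first and second panels, and Srrm3 from 77.5% to 33.5%. Expected counts, unlike TPM, are not per length.

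Of the 31 pairs of neighbours in the order of mean TPM, 15 had library values that overlapped. Ptbp2 and Khdrbs1, and Msi1 and Elavl2, were such pairs. So were all neighbours in the run Celf4, Srrm3, Rbfox1, Fmr1, Fxr2, Elavl3 and Fxr1. Genes farther apart in that run could still be separated: both values of Celf4 lay above those of Fxr2, Elavl3 and Fxr1. In this order of total TPM Elavl4 stood apart from the next gene.

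A neural-enriched class of 16 genes and a broad or progenitor class of 16 were set from textbook knowledge. The neural-enriched class had a median of 37.0 TPM in replicate 1 and 40.5 in replicate 2, and the broad class 51.0 and 58.9. The difference of medians of log2(TPM + 1), neural-enriched minus broad, was -0.45 and -0.53, with a mean of -0.49 ± 0.06. Its size depended on the measure: it was -1.04 with TMM-scaled CPM, which is not per length, and -0.28 with means over members in place of medians. Both classes spanned wide and overlapping ranges, from 11.97 to 337 TPM and from 3.1 to 175 TPM. In 4 of the 10 families with several members a neural-enriched paralog led by TPM: Elavl4, Ptbp2, Nova1 and Srrm3. The lists fixed the leader's class in Nova and Srrm, all neural-enriched, and in Mbnl, Msi and the Fmr1 family, all broad. Only Elavl, Ptbp, Rbfox, Celf and Khdrbs held both classes, and of these a neural-enriched paralog led in Elavl and Ptbp. The count of 4 was the same by expected counts and over complete coding forms, with Srrm4, of the same class, in place of Srrm3. By expected counts in replicate 1 alone it was 3, since Elavl1 was above Elavl4 there. The broad paralogs Celf1, Khdrbs1, Rbfox2, Fmr1, Msi1 and Mbnl1 led the other families by TPM.

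Between the pools none of the 32 was over 2-fold apart on the log2(TPM + 1) scale, against 1.43% of all 15735 genes whose mean reached 1 TPM. The median absolute log2 ratio was 0.09 over the 32, 0.11 over all of those genes and 0.08 over the 9680 genes with a mean of 10 TPM or more, a range that holds 31 of the 32. The neural-enriched class was higher in replicate 2 for 6 genes and lower for 10, and the broad class higher for 11 and lower for 5. Over all 15735 genes 9204 were higher and 6487 lower, so replicate 2 was the higher for most genes. The deposited intervals, which belong to the posterior mean level and whose confidence level is not stated, lay apart for 10 of 32, against 14.3% of all genes. Where the mean was also at least 1000 counts the figures were 10 of 29 and 22.5%, with 6 higher in replicate 2 (16.8% of such genes) and 4 higher in replicate 1 (5.74%).

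The 6 genes with intervals apart and higher in replicate 2 (10.1% of all genes) were Elavl4, Rbfox2, Fxr2, Rbfox3, Nova1 and Khdrbs2. The largest of these log2 ratios was 0.35 for Fxr2. It was 0.25 for Elavl4, 0.23 for Rbfox3 and 0.22 for Khdrbs2. The 4 that were higher in replicate 1 (4.19% of all genes) were Elavl2, Elavl3, Celf3 and Msi2. Their log2 ratios were -0.11, -0.14, -0.20 and -0.41. Neuronal regulators thus stood on both sides, while the 10 neuronal markers were higher in replicate 2 in 10 of 10 (median log2 ratio 0.11) and the 8 sensory ganglion markers in 8 of 8 (median 0.44). Their part in these differences was not tested.

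The largest ratio among the 32 was that of Mbnl3, -0.62 on the log2(TPM + 1) scale, with overlapping deposited intervals. Its log2 ratio of depth-scaled counts was also -0.62, with an exact 95% binomial interval of -0.97 to -0.27 that covers counting error only. For Msi2 the same ratio of counts was -0.39, with an interval of -0.48 to -0.30. Skeletal muscle markers were lower in replicate 2 in 10 of 10, with a median log2 ratio of -0.38, led by Actc1 (131 and 88.0 TPM), Acta1 (64.0 and 46.1) and Tnnt1 (61.9 and 48.1). Their part in the ratios of Mbnl3 and Msi2 was not tested.

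**Figure D3:**
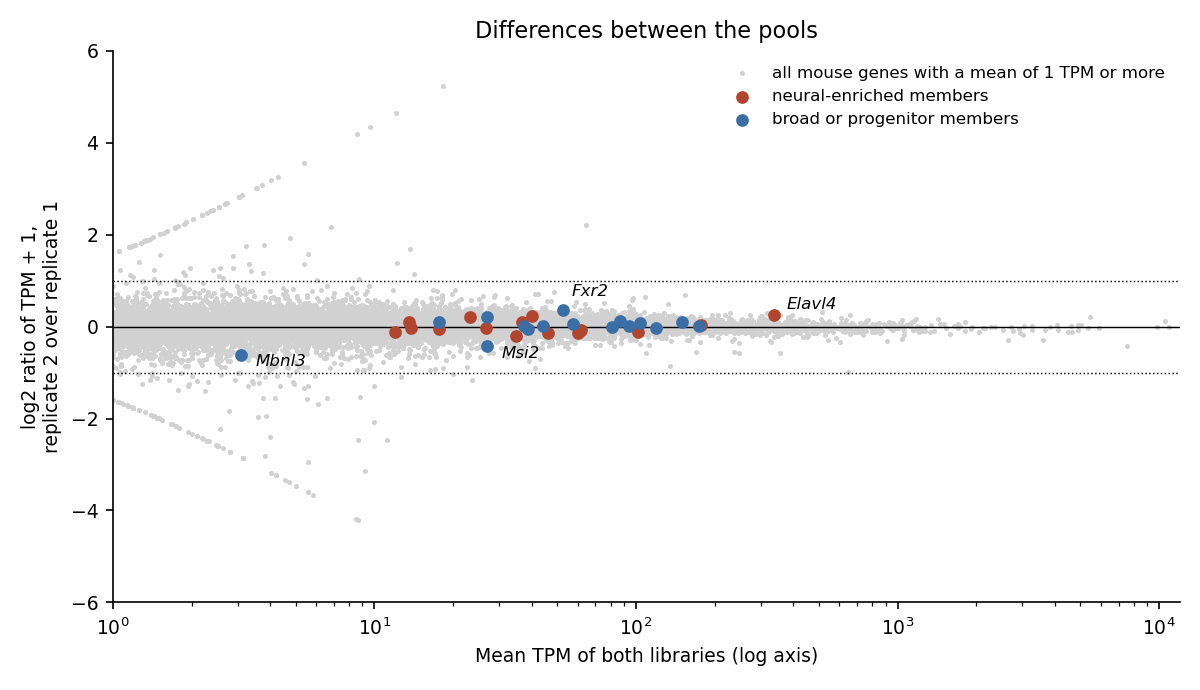
The log2 ratio of TPM + 1, replicate 2 over replicate 1, against mean TPM (log axis) for 15735 genes (grey) and the 32 regulators (red neural-enriched, blue broad), with dotted lines at 2-fold. All 32 lie between the lines, and Mbnl3 at -0.62 is the farthest from 0.

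The transcript tables held 233 forms of the 32 genes, of which 120 were at 1 TPM or more in both libraries. Annotated classes of forms came from a later annotation of the same assembly (GENCODE M21), which matched 231 forms. The median share of a gene's TPM on protein-coding forms was 94.0% in replicate 1 and 98.0% in replicate 2, with a mean of 96.0 ± 2.80%, against 97.2 ± 0.11% over 10812 protein-coding genes with at least 5 TPM. Forms with a complete coding sequence held over 50% of TPM in 26 of 32 (81.2%), against 87.9% of those genes. The 6 genes with 1 form were fixed at 100% on both measures by the annotation. So were genes such as Rbfox2 and Celf4, whose forms are all complete coding. At least 10% of TPM was on retained-intron forms in 7 of 32 (21.9% against 20.9%): Msi2 46.7%, Srrm3 26.1%, Fmr1 22.2%, Celf5 21.8%, Mbnl1 19.0%, Elavl2 16.1% and Celf2 10.1%. At least 5% was on nonsense-mediated decay forms in 4 of 32 (12.5% against 9.59%): Qk 52.9%, Celf2 9.39%, Khdrbs1 6.61% and Srrm3 5.97%. These shares were near those of the background.

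The short forms behind the high TPM of Elavl4 were 2 processed transcripts without a coding sequence. Elavl4-211, of 869 nt, held 31.3% and 32.2% of the gene's TPM, and Elavl4-210, of 464 nt, 19.1% and 18.9%. The 4024-nt coding form Elavl4-202 held 23.4% and 23.1% of TPM but 5620 and 6855 of the gene's 10420 and 12603 counts. The share of a short form in TPM is thus far above its share in counts.

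Of the 25 regulators that had several forms and reached 5 TPM, 1 had another leading form in the other library, against 7.39% of 8304 genes. The gene was Qk, where Qk-202 held 56.1% in replicate 1 and 49.7% in replicate 2, and Qk-201 43.9% and 50.4%. Both forms have another length in the later annotation, so the class of nonsense-mediated decay given there to Qk-202 may not describe the form that was counted. Qk is 1 of 5 genes with no form of the same length, beside Nova1, Elavl1, Elavl3 and Fxr1. The leading forms of Celf4 and Srrm4 and some forms of Rbfox1, Rbfox2 and Mbnl2 also differ in length. The coding class of all these forms, and values over complete coding forms that use them, carry the same limit. Nova2 had a 5110-nt form, at 60.1% and 66.1%, that the later annotation does not hold.

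**Figure D4:**
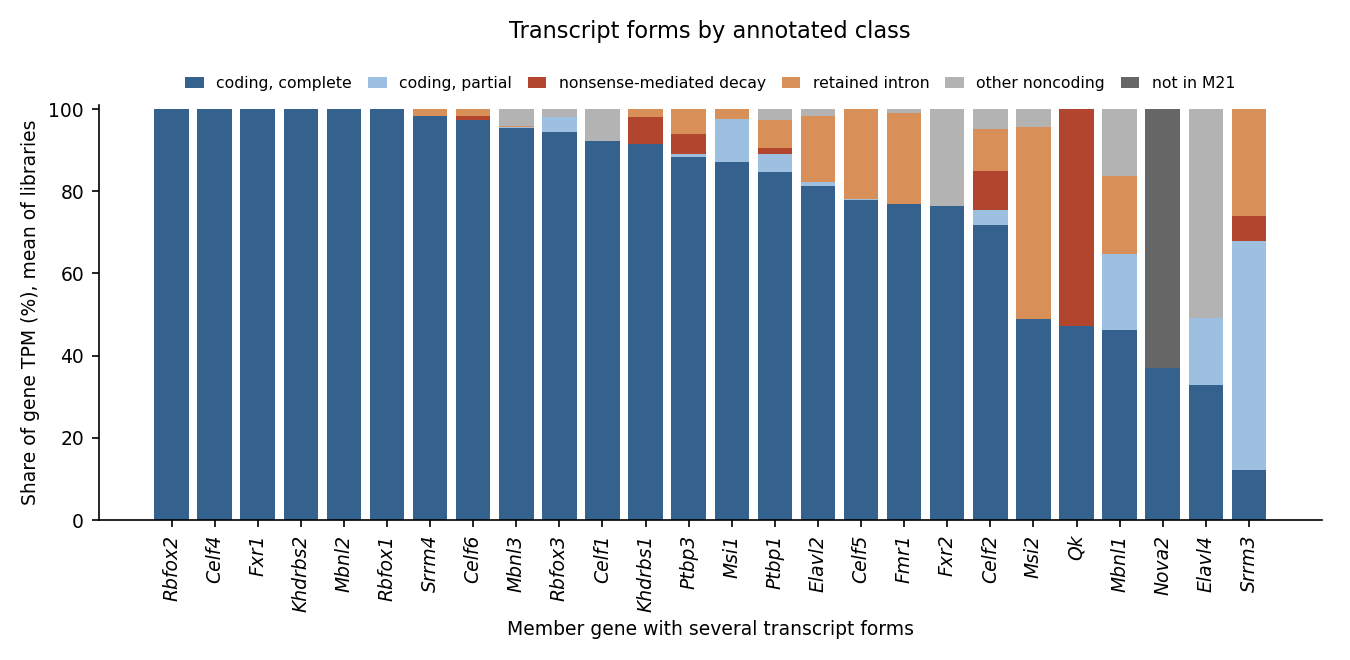
Share (percent, mean of both libraries) of each gene's TPM by annotated class of transcript form, for the 26 genes with several forms. Complete coding forms hold 12.1% in Srrm3. Genes such as Rbfox2 and Celf4 stand at 100% by annotation, since all of their forms are complete coding.

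Exon use was read as inclusion: the percent of TPM on forms that include an exon, out of forms that include or skip it between the same neighbouring splice sites. Only the 217 forms whose length is the same in both annotations were used, and an exon needed at least 1 TPM on each side. This left 24 exons in 11 of the 32 genes, of which 13 were at most 60 nt long and 14 had an inclusion between 20% and 80%. The libraries agreed within 5 percentage points for 13 of the 24, and the median difference was 3.97 points. The following exons are shown because they are the coding ones whose inclusion carries the account below. Each is written 5′ to 3′ on the coding strand with the exon in capitals between 12 nt of each neighbouring coding exon, from the GENCODE M21 transcripts on GRCm38.
Ptbp1 78-nt exon: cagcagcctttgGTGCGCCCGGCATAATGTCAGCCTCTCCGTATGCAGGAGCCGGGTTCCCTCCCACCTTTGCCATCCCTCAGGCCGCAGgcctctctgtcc
Ptbp1 34-nt exon: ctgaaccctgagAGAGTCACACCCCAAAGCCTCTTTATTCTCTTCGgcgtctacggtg
Elavl2 39-nt exon: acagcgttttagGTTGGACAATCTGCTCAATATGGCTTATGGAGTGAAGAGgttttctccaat
Elavl4 39-nt exon: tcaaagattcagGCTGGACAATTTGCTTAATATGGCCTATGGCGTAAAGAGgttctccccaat
Fmr1 63-nt exon: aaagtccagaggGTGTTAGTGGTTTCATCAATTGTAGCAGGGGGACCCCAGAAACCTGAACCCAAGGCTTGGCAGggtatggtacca
Mbnl1 54-nt exon: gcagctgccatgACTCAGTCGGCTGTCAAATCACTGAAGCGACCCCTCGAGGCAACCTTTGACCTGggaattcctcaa
Mbnl1 36-nt exon: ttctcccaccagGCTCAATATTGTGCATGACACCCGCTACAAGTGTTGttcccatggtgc

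Transcripts of Ptbp1 were spliced in a mixed way. The 78-nt exon at chr10:79860117-79860194, which lengthens the linker between RNA-binding domains of PTBP1, had an inclusion of 39.1% in replicate 1 and 41.2% in replicate 2. It was included at 50.3 and 55.6 TPM and skipped at 78.4 and 79.4 TPM, so forms with and without it were both abundant. The 34-nt exon at chr10:79862014-79862047 was included at 98.4% and 98.5%. Skipping of that exon shifts the reading frame and is known as the route by which PTBP1 limits its own level. The skipping form Ptbp1-201, at 2.07 and 2.00 TPM, is of the nonsense-mediated decay class, so its level can understate how often the exon is skipped. A 34-nt exon of Ptbp3 had an inclusion of 23.7% and 16.4%. It is exon 2 of its form, whereas the 34-nt exon of Ptbp1 is exon 10, and the leading coding form Ptbp3-201 skips it.

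The Elavl exons of 39 nt lie in the hinge before the last RNA-binding domain, and 33 of their 39 bases are the same in Elavl2 and Elavl4. Both were mostly included. Inclusion was 95.01% and 93.7% in Elavl2 (chr4:91254141-91254179) and 97.8% and 97.8% in Elavl4 (chr4:110209740-110209778). A 57-nt exon of Msi1 had a similar level, 94.4% and 90.5%.

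Fmr1 and Mbnl1 were divided between forms. The 63-nt exon of Fmr1 at chrX:68705861-68705923, which encodes part of a KH domain, was included at 37.2% and 44.7%. The 54-nt exon of Mbnl1 at chr3:60614683-60614736, known for its effect on nuclear localisation of MBNL1, was included at 48.9% and 57.0%, and the 36-nt exon at chr3:60621423-60621458 at 24.7% and 30.8%. For all 3 exons the value in replicate 2 was the higher. The Mbnl1 values depend on which forms are counted: over protein-coding forms alone the means were 69.1% and 35.1%, in place of 53.0% and 27.8%. The largest difference between libraries, 29.3 points, was that of a 49-nt exon of Mbnl1 (19.1% and 48.3%), which rests on no more than 6.41 TPM on either side. This exon is a shorter version of a 154-nt exon that ends at the same base. Forms with the longer version were not counted for it, and the 154-nt exon itself was at 72.3% and 85.8%. The 19.1% and 48.3% are therefore not the inclusion of that stretch over all forms.

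Other exons of the regulators ranged from mostly included to mostly skipped. The 144-nt exon of Celf2 was at 67.9% and 67.0%, and its 41-nt exon, which is found in a nonsense-mediated decay form, at 11.99% and 11.1%. The 40-nt exon of Rbfox3, which is not wholly coding, was at 74.3% and 76.9%. A 20-nt exon of Srrm3 that marks a nonsense-mediated decay form was at 37.9% and 28.0%. It rests on 1 form on each side, at 4.33 and 2.99 TPM with the exon and 7.09 and 7.67 TPM without it. The whole gene was at 63.2 and 58.8 TPM.

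A list of 17 genes whose exons are known targets of such regulators was read in the same way and gave 32 exons in 11 genes, of which 27 were within 5 points between the libraries and 10 between 20% and 80%. No exon was obtained for Pkm and Nrcam, which had fewer than 2 forms of matching length, nor for 4 other genes. The coding microexons and short exons with a known neuronal role are shown in the same layout, because they are the best known substrates of the regulators described above.
Src 18-nt exon: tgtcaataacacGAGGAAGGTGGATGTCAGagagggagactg
Apbb1 6-nt exon: ggacagtggaagAGAGAGggactttgccta
Clta 54-nt exon: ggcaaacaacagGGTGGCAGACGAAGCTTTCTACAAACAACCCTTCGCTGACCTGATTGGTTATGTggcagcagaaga
Agrn 24-nt exon: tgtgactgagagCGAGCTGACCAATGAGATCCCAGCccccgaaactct
Agrn 33-nt exon: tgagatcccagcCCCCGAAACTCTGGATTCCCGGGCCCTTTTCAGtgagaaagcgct

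The 18-nt exon of Src at chr2:157458843-157458860 gives the neuronal form of this kinase and is a classical target of repression by PTBP1. It was included at 48.2% and 48.7%. The 6-nt microexon of Apbb1 at chr7:105565946-105565951, a target of SRRM4, was included at 80.1% and 84.1%. The 54-nt exon of Clta (chr4:44030215-44030268), part of the neuronal insert of clathrin light chain a, was at 50.6% and 48.9%, whereas the 36-nt exon of the same insert was at 1.26% and 1.75%. Forms with and without the neuronal exon were therefore both present for Src and Clta.

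The 24-nt and 33-nt exons of Agrn (chr4:156168546-156168569 and chr4:156167777-156167809), regulated by NOVA, are those that give agrin its activity at the neuromuscular synapse. They were at 71.1% and 71.9%, and at 15.5% and 18.01%. Over protein-coding forms alone both means became 37.0%, so the difference between these exons rests on a retained-intron form. The 21-nt exon of Mef2d, used in muscle and brain, was low at 17.6% and 15.0%.

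Snap25 has a pair of mutually exclusive 118-nt exons. The upstream one was at 4.65% and 6.50% and the downstream one at 95.3% and 93.5%. For Numb, an inhibitor of Notch signalling, the 33-nt exon was at 15.5% and 18.8%, and the 147-nt exon at 40.4% and 30.4%, the latter from forms not annotated as protein coding. The 39-nt exon of Dab1, a reelin adaptor, was at 47.3% and 60.8%, with a mean of 54.0%, and at a mean of 82.1% over protein-coding forms alone. In Dclk1, a microtubule-associated kinase, a 74-nt exon was at 11.7% and 11.3%. Only 2 of the 3 forms of Dclk1 could be used. They held 3.91 and 3.98 TPM with the exon and 29.6 and 31.3 TPM without it, of 81.7 and 81.9 TPM for the gene.

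**Figure D5:**
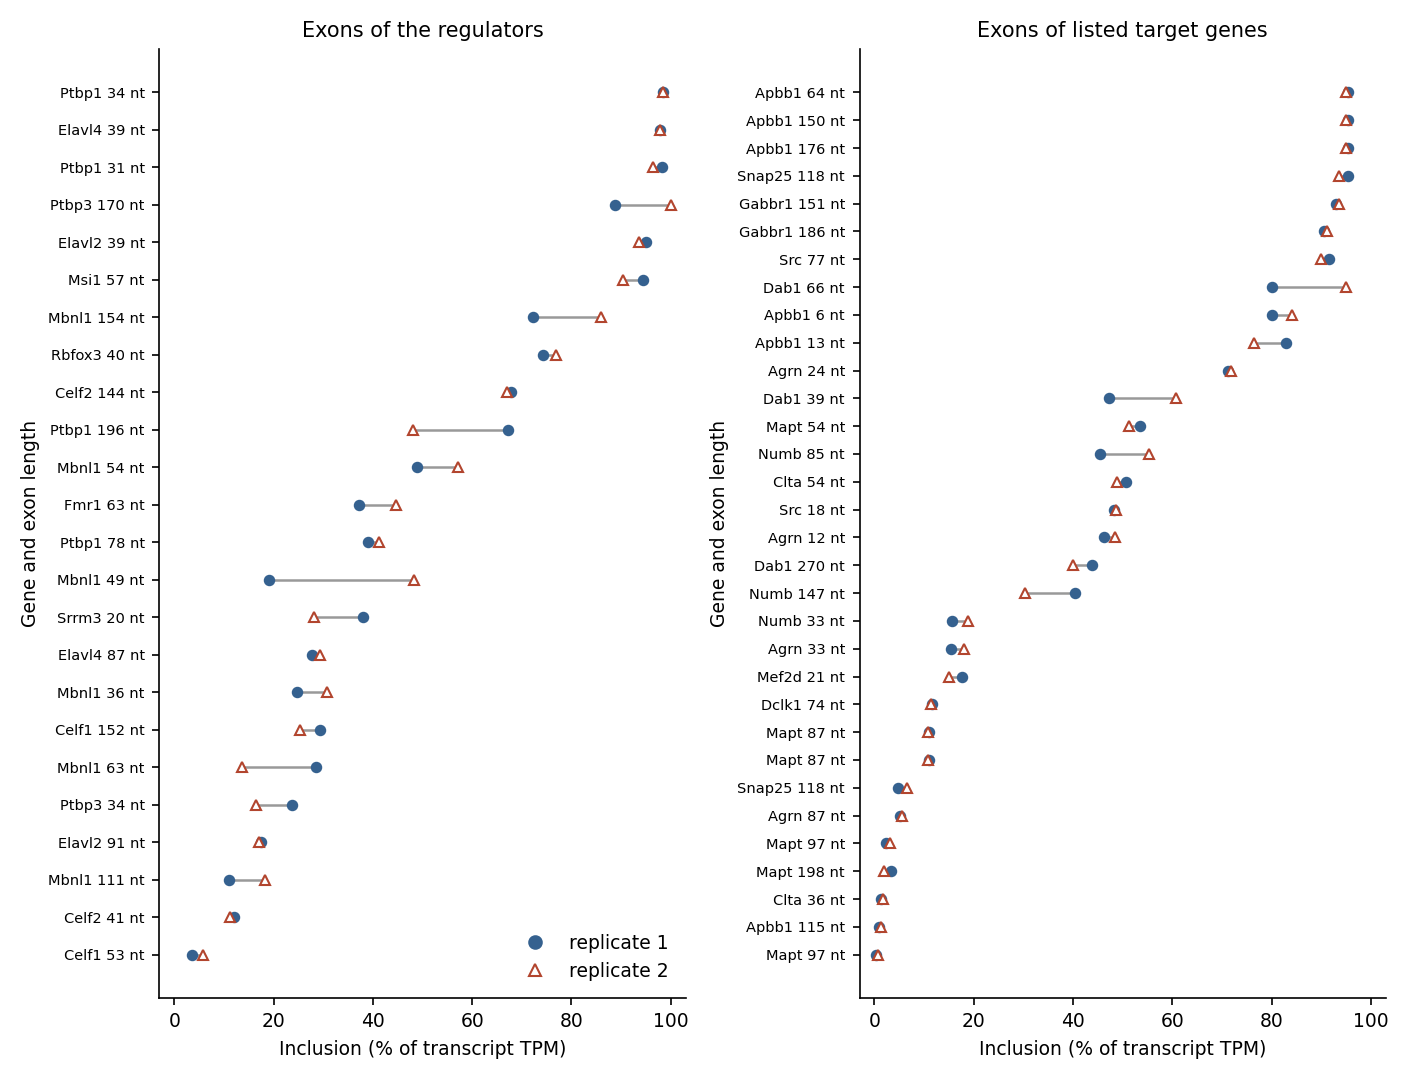
Inclusion (percent of transcript TPM) of 24 exons of the regulators (left) and 32 exons of listed target genes (right) in replicate 1 (circles) and replicate 2 (open triangles), labelled by gene and exon length. The Src 18-nt exon lies near 48% in both libraries. The 49-nt exon of Mbnl1, a shorter version of its 154-nt exon, has the widest gap, 29.3 points.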

How the data were processed

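The authors deposited gene and transcript tables for both libraries, made from transcriptome alignments to mm10 with GENCODE M4, per the deposited read-me text. The program, and whether strand was used in counting, are not given in the sources used here, and 26 of the 32 genes overlap another annotated gene. The expected counts are estimates that need not be whole, per the file headers: 28 of the 32 genes had whole counts (tolerance 0.005) in both libraries, and Ptbp1, Celf2, Celf5 and Fmr1 did not. TPM and FPKM values were scaled for length and depth by the authors, per the file headers, and FPKM was not used. The deposited percent values give each form's share of its gene, and the deposited bounds of TPM were taken as scores. The title of the series says that it was superseded.

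Levels are TPM. Ratios between libraries use log2(TPM + 1), which understates differences of low genes. The count ratios of Mbnl3 and Msi2 were scaled by the total expected counts of each library. Count ratios between paralogs were not scaled, so they also hold the difference in transcript length. Expected counts scaled by edgeR 4.0.16 TMM or DESeq2 1.42.0 size factors, with R 4.3.3, served for alternatives. Genes entered the ratios from a mean of 1 TPM. Counts have exact binomial 95% intervals for counting error only. Forms were matched to GENCODE M21 on GRCm38 by identifier without version. Exons were at most 300 nt. The scripts were tested on simulated data.

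The members and lists were chosen with earlier results of these data known. Named are all 32 members, the 3 highest genes of a list, exons of at most 60 nt and up to 3 exons nearest to even use, and exons of target genes. Some that this takes are given only in the plot of exon inclusion, and 1 target gene is not reported here. The labels name separate pools under 1 donor label and no batch.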

Additional observations from a re-analysis of the deposited data

How the results depend on the processing

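The difference of class medians, -0.49, kept its sign under every alternative run: it was -1.04 with TMM-scaled CPM, which is not per length, -0.28 with means over members, and -0.32 over complete coding forms, an alternative chosen after seeing the data. The cause was not tested. Leaving out a replicate gave -0.53 to -0.45. The number of genes with another leading form was 1, and 2 with shares from the posterior mean (Ptbp1 beside Qk) or at 1 TPM (Mbnl3 beside Qk). The median coding share, 96.0%, was 91.1% from the posterior mean, and 94.0% to 98.0% with 1 replicate left out. Of the member exons, 14 had an inclusion between 20% and 80%, and 9 when only protein-coding forms were counted, where fewer forms enter; leaving out a replicate gave 11 to 13. The number of genes detected stayed at 31 or 32, and no gene passed 2-fold, under the alternatives run. Expected counts, which are not per length, moved 30 of 31 family shares by more than their SD, with a median shift of 5.63 points. Complete coding forms moved 24 of 31, with a median shift of 3.66 points. Depth limits Mbnl3 most, at 172 and 119 counts. No paired analysis was possible because there is 1 group.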
